A study of Homo sapiens with 6 samples.

Results

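The thioredoxin and peroxiredoxin genes were followed in MDA-MB-231, a long-established line of human triple-negative breast cancer cells, grown on glucose or on fructose. A gene was a member when the array annotation gave its symbol to a probe set, the group of probes read out as a single value. Of the 10 genes TXN, TXN2, TXNRD1, TXNRD2 and PRDX1 to PRDX6, 9 were measured, out of 18404 genes represented on the array, and PRDX5 was not analysed here. Each of the 9 had 1 probe set. Cultures were kept in DMEM with 25 mM glucose or with 10 mM fructose for 25 days, and the series presents this as a way to restrict glycolysis. Each sugar had 3 arrays, and each array came from a batch of cells that had been adapted on its own. RNA was prepared from dishes roughly 70% covered, some 24 hours after a change of medium. Every culture was the same parental line, with no added gene or drug named in the labels, and the kind of sugar cannot be told apart from its concentration or from the absence of glucose.

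Thioredoxins are small proteins that reduce disulfide bonds in other proteins, and thioredoxin reductases recharge them with electrons from NADPH. Peroxiredoxins break down hydrogen peroxide with a reactive cysteine, and most of them are in turn recharged by thioredoxin. The cytosol holds TXN with its reductase TXNRD1, and mitochondria hold a separate set of TXN2, TXNRD2 and PRDX3. Cancer cells rely on this system for peroxide removal and for the reduction of ribonucleotides in DNA synthesis. TXNIP, a glucose-induced protein, binds reduced thioredoxin and holds it inactive.

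No member passed the test between the sugars. In limma with Benjamini-Hochberg adjustment over 28230 probe sets, 0 of 9 members had an adjusted p under 0.05, against a background of 0.00354% of probe sets, which was 1 probe set, that of TXNIP. At an unadjusted p under 0.05 there was 1 member, PRDX2, and 13.1% of all probe sets and 17.4% of those brighter than the median reached that level. The 9 log2 differences (fructose minus glucose) ran from -0.15 for PRDX4 to 0.28 for PRDX2, with a median of 0.050. The median over all tested probe sets was 0.021. Of the members 6 were higher in fructose and 3 lower, while 56.2% of all probe sets were higher. The median size of a member's difference, in either direction, was 0.069 (log2), beside 0.097 over all probe sets.

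The intervals bound how large a difference these arrays leave room for. The 95% intervals of all 9 members lay within 1.5-fold in either direction, as did those of 89.7% of all probe sets and 93.1% of the probe sets brighter than the median. The lowest bound was 0.785 times the glucose level, for PRDX4, and the highest was 1.38 times, for PRDX2. These intervals are each for a single gene and are not adjusted for the number of genes. They bound a change in intensity. TXNRD2 was brighter than only 55.5% of probe sets, and whether so dim a value follows its transcript was not tested.

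**Figure D1:**
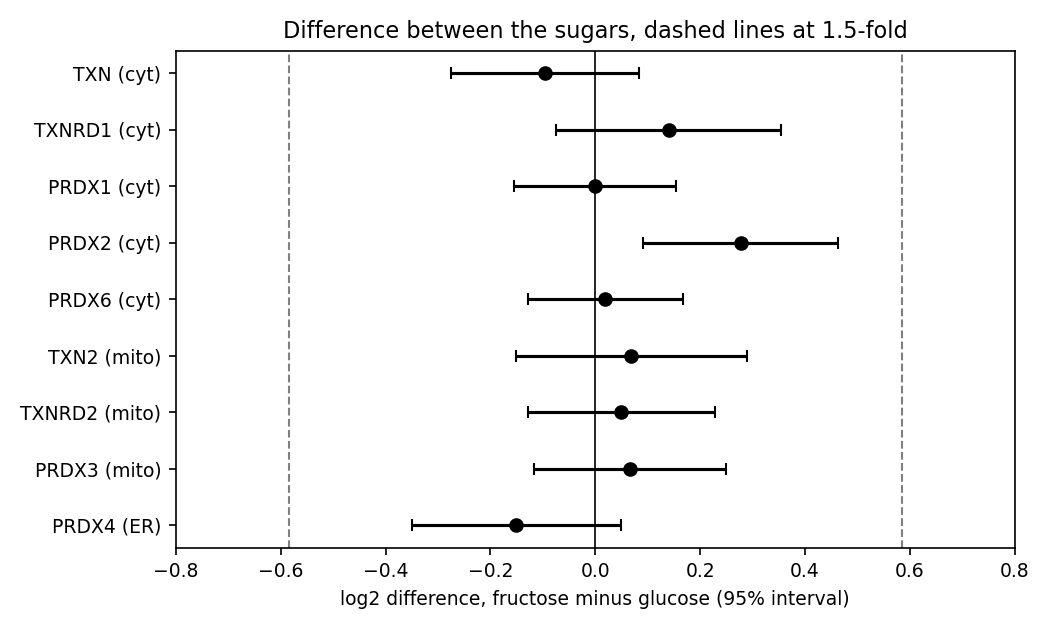
Log2 difference between fructose and glucose for the 9 measured members (points) with 95% intervals from limma (bars), from 3 arrays per sugar, with the compartment in parentheses (cyt, cytosol; mito, mitochondria; ER, endoplasmic reticulum). Every interval lies between the dashed lines at 1.5-fold, and that of PRDX2, from 0.091 to 0.46, is the single interval that does not include 0.

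TXNIP, the inhibitor of thioredoxin, is the 1 gene that passed over all probe sets. Its intensity was 1639, 1781 and 1656 on the glucose arrays and 107, 122 and 136 on the fructose arrays. Its log2 value fell by 3.80 (SE 0.099, limma adjusted p = 4.7e-05). The partner that it binds, TXN, differed by -0.095 (95% interval -0.27 to 0.084). No array showed a TXN level outside 2430 to 2894.

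Promoter sequence was compared with the response of TXNIP, whose known glucose response runs through a paired E-box, the carbohydrate response element read by MondoA and ChREBP with MLX. Promoters were 250 bases before to 50 bases after each RefSeq transcript start (GRCh38.p14), and 7 of the 10 members matched an entry, with 11 promoters between them. The windows below each hold 60 bases, 5′ to 3′ on the gene's own strand, and were chosen to show the element of the responding gene beside single E-boxes and an NRF2-type sequence of the members. Capitals mark the fixed letters of the motif.
TXNIP: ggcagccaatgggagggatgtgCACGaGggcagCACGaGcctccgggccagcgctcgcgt
PRDX3: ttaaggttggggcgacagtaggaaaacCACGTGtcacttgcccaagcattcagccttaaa
PRDX4: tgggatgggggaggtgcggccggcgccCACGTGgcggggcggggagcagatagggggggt
TXNRD1: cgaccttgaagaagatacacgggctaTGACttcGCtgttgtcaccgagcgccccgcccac
The TXNIP window lies at chr1:145996630-145996689 on the minus strand, with the element 88 bases before the start. That of PRDX3 is chr10:119178937-119178996, minus strand, that of PRDX4 chrX:23667383-23667442, plus strand, and that of TXNRD1 chr12:104215654-104215713, plus strand.

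The paired form, written CACGNGNNNNNCACGNG and sought on both strands, was in 20 of 35116 promoters (0.057%). TXNIP, a gene already known for this element, held it, and 0 of the 11 member promoters did. With so rare a form, 11 promoters cannot tell whether the members differ from other genes. Members with no matched promoter were not searched. The single palindromic E-box CACGTG, which reads the same on both strands and can form part of the paired motif, was in 7.26% of all promoters and in 2 of the 11, those of PRDX3 and PRDX4. PRDX3 differed by 0.066 and PRDX4 by -0.15 (log2) between the sugars, and neither passed. The core of the antioxidant response element, TGACNNNGC, the site of the oxidative stress factor NRF2, was in 13.3% of all promoters and in 2 of the 11, both of TXNRD1. A match describes letters in a window and not binding, and the windows do not reach distal sites.

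Neither thioredoxin passed the test. TXN, the cytosolic thioredoxin, had intensities of 2894, 2785 and 2611 in glucose and 2659, 2672 and 2430 in fructose. The groups overlapped, since the lowest glucose array lay below 2 of the fructose arrays. The log2 difference of -0.095 (SE 0.076) had an adjusted p of 0.64, and all 3 fructose arrays lay below the glucose mean. With an array left out it ran from -0.14, without glucose replicate 3, to -0.051, without fructose replicate 3, and was -0.061 without glucose replicate 1. TXN2, the mitochondrial thioredoxin, read 125, 116 and 120 in glucose and 128, 140 and 113 in fructose. Its lowest array and its highest array were both from fructose, and the difference of 0.069 (SE 0.094) had an adjusted p of 0.80. TXN2 stood at -0.0057 without fructose replicate 2 and at 0.15 without fructose replicate 3.

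Of the reductases, TXNRD1 had the larger difference, and it was uneven among the fructose cultures. TXNRD1 is the selenocysteine enzyme that recharges TXN. Its intensities were 1201, 1168 and 1203 in glucose and 1341, 1167 and 1445 in fructose. Fructose replicates 1 and 3 lay above every glucose array, and fructose replicate 2 lay just below the lowest of them. Glucose cultures averaged 1191 ± 19.5 (SD, n = 3) and fructose cultures 1317 ± 140 (SD, n = 3), so the spread was wider in fructose. The log2 difference of 0.14 (SE 0.091) had an adjusted p of 0.56. Without fructose replicate 2 it was 0.22 (adjusted p = 0.29), and without fructose replicate 3 it was 0.071. TXNRD2, the mitochondrial reductase, read 39.6, 42.5 and 42.8 in glucose and 41.2, 42.0 and 46.1 in fructose. Its groups overlapped, and the difference was 0.050 (SE 0.076, adjusted p = 0.83).

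**Figure D2:**
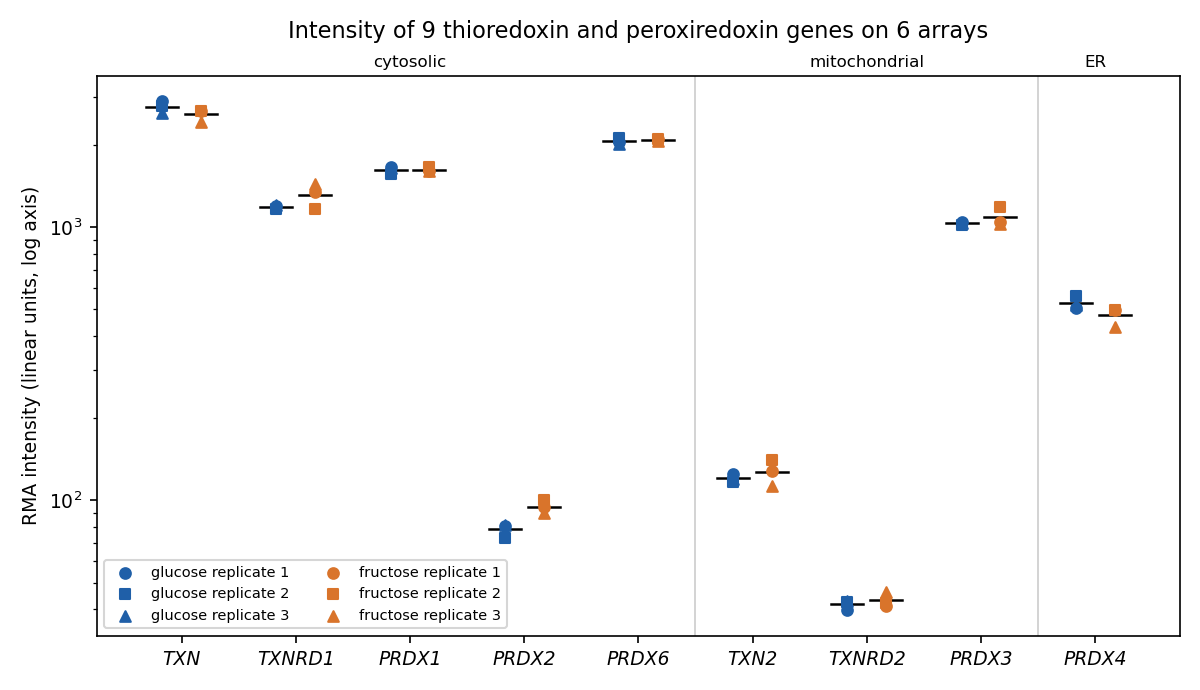
RMA intensity (log axis) of the 9 measured members on 3 glucose and 3 fructose arrays, with the symbol shape giving the replicate number and a bar at each group mean; ER is the endoplasmic reticulum. The groups overlap for 7 genes, and only PRDX2, with fructose at 89.7 to 100.1 over glucose at 72.8 to 81.0, and PRDX4, with fructose at 433 to 498 under glucose at 506 to 558, are parted, which is 2 of 9 beside 20.2% of all probe sets and 28.7% of the brighter ones.

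Among the peroxiredoxins, PRDX2 had the largest difference between the sugars. PRDX2 is a cytosolic peroxidase that is abundant in red cells and is sensitive to low levels of peroxide. Its intensities were 80.8, 72.8 and 81.0 in glucose and 94.6, 100.1 and 89.7 in fructose, so every fructose array lay above every glucose array. Such separation, in either direction, was found for 20.2% of all tested probe sets and for 28.7% of those brighter than the median, and with fructose higher for 11.4% of all. Glucose cultures averaged 78.2 ± 4.67 (SD, n = 3) and fructose cultures 94.8 ± 5.23 (SD, n = 3). The log2 difference was 0.28 (SE 0.079, 95% interval 0.091 to 0.46), which is 1.21-fold. The unadjusted limma p was 0.0097, rank 1135 of 28230, and the adjusted p was 0.24. Over 15 alternative settings the difference stayed between 0.23 and 0.32 and the adjusted p stayed at or above 0.085. Several of these settings cannot move the difference, since they change only its error or the probe sets tested. The 4 measured red cell markers AHSP, HBB, ALAS2 and SLC4A1 were all dimmer than the median probe set, with summed intensities of 69.1 to 91.2 in glucose and 74.6 to 81.0 in fructose.

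PRDX1 and PRDX6 were the steadiest of the members. PRDX1, the major cytosolic peroxiredoxin of many cells, read 1666, 1560 and 1654 in glucose and 1613, 1662 and 1604 in fructose. All 3 fructose arrays fell inside the glucose range. Its difference was -0.00025 (SE 0.065, 95% interval -0.15 to 0.15, adjusted p = 0.999). PRDX6, which works with a single active cysteine, takes its electrons from glutathione and also acts on phospholipids, read 2050, 2117 and 2014 in glucose and 2099, 2101 and 2063 in fructose. Its fructose arrays also fell inside the glucose range, and the difference was 0.019 (SE 0.062, adjusted p = 0.93). The SD within a sugar was 0.042 for PRDX1 and 0.028 for PRDX6 (log2), lower than for 90.6% and 96.9% of the 14115 brighter probe sets. Both genes were themselves brighter than 98.6% and 99% of tested probe sets, and no comparison was made with probe sets of like brightness.

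PRDX3 and PRDX4 lie outside the cytosol. PRDX3, the main peroxiredoxin of the mitochondrial matrix, read 1044, 1023 and 1039 in glucose and 1043, 1185 and 1029 in fructose. Fructose replicate 2 alone stood above the glucose arrays. The difference of 0.066 (SE 0.078, adjusted p = 0.77) was 0.0011 without that array and 0.10 without fructose replicate 3. PRDX4, the peroxiredoxin of the endoplasmic reticulum, where it passes oxidising power to folding proteins, read 506, 558 and 517 in glucose and 498, 496 and 433 in fructose. The 3 fructose values were all under the glucose values, a pattern held by 8.81% of all probe sets. The gap between the lowest glucose array and the highest fructose array was small beside the spread in each group. The difference of -0.15 (SE 0.084, 95% interval -0.35 to 0.048) had an adjusted p of 0.50, and it was -0.084 without fructose replicate 3.

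**Figure D3:**
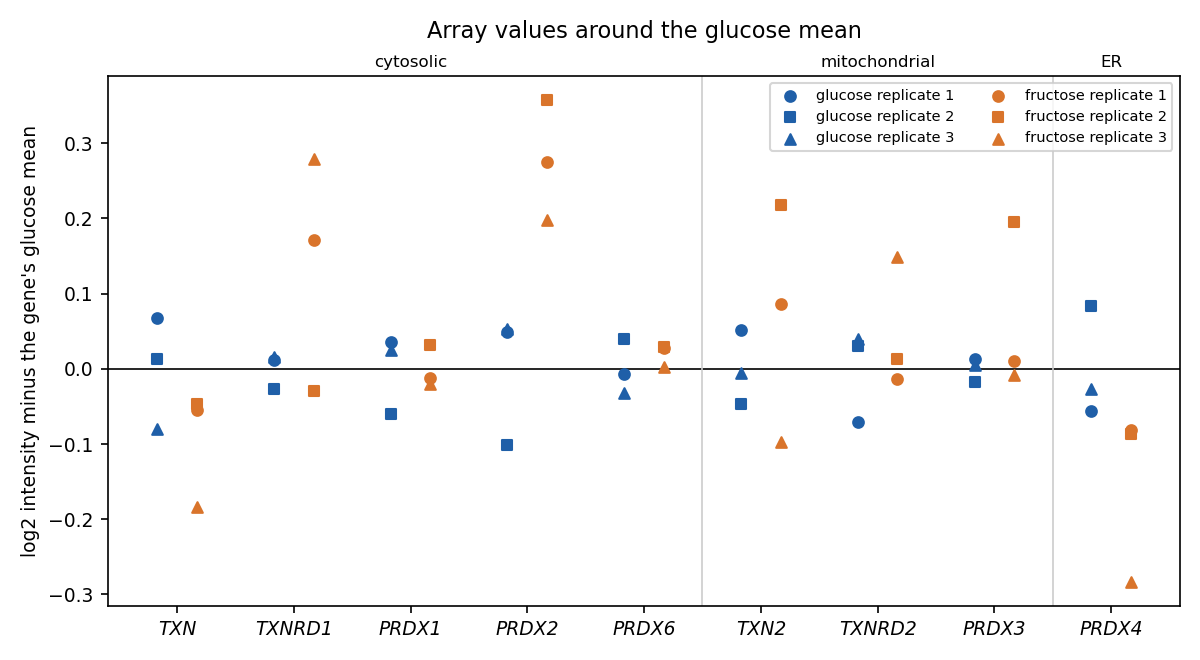
Log2 intensity of each member on each array minus that gene's mean over the glucose arrays, with colour for sugar and symbol shape for replicate number; ER is the endoplasmic reticulum. Fructose replicate 2 is the highest array for TXN2 (0.22), PRDX2 (0.36) and PRDX3 (0.19), and fructose replicate 3 is the highest for TXNRD1 (0.28) and TXNRD2 (0.15) and the lowest for TXN (-0.18) and PRDX4 (-0.28).

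Cytosolic and mitochondrial members were then set side by side, as values with no test. The 5 cytosolic genes TXN, TXNRD1, PRDX1, PRDX2 and PRDX6 had a median difference of 0.019, with 3 higher and 2 lower in fructose and a range from -0.095 to 0.28. The 3 mitochondrial genes had a median of 0.066, with all 3 higher and a range from 0.050 to 0.069. Each of those differences was smaller than its own standard error. By array, the mitochondrial median stood at 0.011, 0.19 and -0.0086 above the glucose mean on fructose replicates 1, 2 and 3, and the cytosolic median at 0.027, 0.029 and 0.0021. On every array the mitochondrial median was the value of PRDX3, so it repeats that gene and does not describe all 3. It was 0.0011 without fructose replicate 2, where TXN2 stood at -0.0057 but TXNRD2 at 0.068. Without fructose replicate 3 it was 0.10 and TXNRD2 stood at -8.2e-05. The cytosolic median ran from 0.012, with glucose replicate 3 left out, to 0.039, with glucose replicate 2 left out, and after each array was centred on its own median it turned to -0.0063. Between replicate arrays of a sugar these medians varied with an SD of 0.025 (cytosolic) and 0.080 (mitochondrial), the latter being that of PRDX3.

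The fructose cultures were not alike. The first principal component over all probe sets held 28.8% of the variance. On it the glucose arrays lay between -14.8 and -13.5 and the fructose arrays at 17.9, 5.67 and 19.3, with replicate 2 nearest to glucose. Fructose replicate 2 was the lowest array on the second component, at -24.9. The other fructose arrays lay there at -0.060 and 14.7, and the glucose arrays between -4.28 and 7.78. Among the members, TXNRD1 followed the order of the first component, with replicate 2 at the glucose level. TXN2, PRDX2 and PRDX3 were highest on fructose replicate 2. Markers of the line were read against the median probe set, which is a coarse measure, since brightness also depends on the probes. The 8 genes known to be high in mesenchymal triple-negative lines, VIM and CD44 among them, were all brighter than the median probe set, and 5 of 8 luminal markers, the receptors ESR1 and PGR among them, were dimmer, while XBP1, GATA3 and TFF1 were brighter. Of the leukocyte and fibroblast markers 1 of 6 in each list was brighter than the median, CD68 and COL1A1. The part of these differences between cultures in the members' values was not tested.

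The genes that work around the system were read from 7 lists with 97 genes, of which 90 were measured. TXNIP was the 1 gene of them that passed. An unadjusted p under 0.05 was found for 16.7% of the 90, beside 13.1% of all probe sets and 17.4% of the brighter ones. Most of the 90 genes were brighter than the median probe set. With an intensity trend and robust variances, which called 473 probe sets (1.68%; 0.914% higher and 0.762% lower in fructose), 2 of the 90 rose and 3 fell, and 0 of the 9 members passed. Among the brighter probe sets alone, where 325 (2.3%) were called, 2 of the 90 and 0 of the 9 members passed.

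Relatives of thioredoxin, together with the thioredoxin-binding proteins TXNIP and MAP3K5, made up the first list. Of 21 measured, 7 were higher and 14 lower, with a median of -0.043, beside 56.2% of all probe sets higher. TXNIP fell, and with the intensity trend and robust variances so did TMX3 and TMX1, which are membrane-bound thioredoxin-like proteins of the endoplasmic reticulum. TMX3 had intensities of 153, 150 and 162 in glucose and 122, 118 and 115 in fructose. Its groups did not overlap, a pattern held by 20.2% of all probe sets and 28.7% of the brighter ones. Its difference was -0.39 (SE 0.068, limma adjusted p = 0.14, and 0.025 with the trend). TMX1, named after its value was seen, differed by -0.24 (adjusted p = 0.23, and 0.039 with the trend). TXNDC11, at 0.29, and TXNDC16, at -0.31, did not pass in either fit.

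The enzymes that repair peroxiredoxins or draw on thioredoxin showed no call. SRXN1, the sulfiredoxin that restores overoxidised peroxiredoxins, read 156, 164 and 148 in glucose and 162, 157 and 158 in fructose. Its groups overlapped and the difference was 0.024 (95% interval -0.14 to 0.19). The ribonucleotide reductase subunits RRM1 and RRM2, which take electrons from thioredoxin, differed by -0.15 and -0.12. SESN2, a stress-induced sestrin, differed by 0.37 (SE 0.16) and MSRA, a methionine sulfoxide reductase, by 0.11. The list of 11 had a median of -0.0099, with 5 higher and 6 lower beside 56.2% of all probe sets higher, and 0 passed in either fit.

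The parallel peroxide and superoxide defences were also without a call. Of 14 genes of glutathione peroxidases, glutathione reductase, catalase, superoxide dismutases and related transferases, 10 were higher and 4 lower in fructose, with a median of 0.098, beside 56.2% of all probe sets higher, and 0 passed in either fit. SOD3, the extracellular superoxide dismutase, differed by 0.32, the transferase GSTK1 by 0.36, GPX4, which reduces lipid peroxides, by 0.21 and GPX7 by 0.23 from a dim level. GSR, which recharges glutathione much as TXNRD1 recharges TXN, read 346, 354 and 358 in glucose and 373, 367 and 383 in fructose. Its arrays did not overlap between the sugars, but the difference of 0.087 (SE 0.063) had an adjusted p of 0.60. Of the 14 genes 6 had arrays without overlap, beside 20.2% of all probe sets and 28.7% of the brighter ones. Without fructose replicate 2, a setting chosen after seeing the data, 8 of the 14 were higher and the median was 0.077.

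The supply side of the system was also without a call. Of 14 measured genes listed for NADPH supply, the kinases NADK and NADK2 among them, 10 were higher, with a median of 0.060. Of all probe sets 56.2% were higher. The enzymes with the smallest p were PGD of the pentose phosphate pathway at 0.20, IDH1 at 0.15 and the folate enzymes MTHFD2L at 0.28 and MTHFD2 at 0.20. Without fructose replicate 2, a setting chosen after seeing the data, 8 of the 14 were higher and the median was 0.029. The 8 measured genes for selenocysteine synthesis and insertion, on which both reductases depend, had a median of 0.020 and a range from -0.080 to 0.13. PSTK (0.13), SEPSECS (-0.062), SECISBP2 (0.068) and SEPHS1 (-0.080) had the smallest p of that list. Of 7 measured genes of disulfide formation in the endoplasmic reticulum, where PRDX4 works, 5 were higher, beside 56.2% of all probe sets. Their median was 0.049. The oxidases ERO1B and ERO1A differed by 0.44 (SE 0.19) and -0.12, PDIA4 by 0.13 and VKORC1 by 0.082.

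NRF2 is the factor known to drive TXNRD1, TXN, PRDX1 and SRXN1 in many cells. Of 15 measured genes for NRF2, its regulators and its targets outside the members, 14 were higher in fructose, with a median of 0.18, beside 56.2% of all probe sets higher. None passed in the limma test, and 5 of the 15 had an unadjusted p under 0.05, beside 13.1% of all probe sets and 17.4% of the brighter ones. The list mixes targets with regulators, KEAP1 among them, so its count is not a measure of NRF2 activity. GCLM, a target, was the 1 lower gene (-0.098), and HMOX1, another target, stood at 0.045. The fructose cultures differed here too. The median of the list stood at 0.28, 0.051 and 0.18 above the glucose mean on fructose replicates 1, 2 and 3, and 7 of the 15 genes were at or below that mean on replicate 2. Without that array, a setting chosen after seeing the data, 14 genes were again higher and the median was 0.22. With the intensity trend and robust variances 2 rose. These were MAFG, a DNA-binding partner of NRF2, at 0.29 (adjusted p = 0.19, and 0.032 with the trend), and the ferritin light chain FTL at 0.27 (adjusted p = 0.20, and 0.015 with the trend). NQO1 differed by 0.23, and KEAP1, the repressor of NRF2, by 0.24 (95% interval 0.044 to 0.43, adjusted p = 0.30). NFE2L2, which encodes NRF2, read 446, 491 and 425 in glucose and 532, 443 and 452 in fructose, with a difference of 0.066 (95% interval -0.17 to 0.30). For the 4 genes named above as driven by NRF2 no direction was resolved, since each 95% interval included 0. TXNRD1 stood at 0.14, SRXN1 at 0.024, PRDX1 at -0.00025 and TXN at -0.095.

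**Figure D4:**
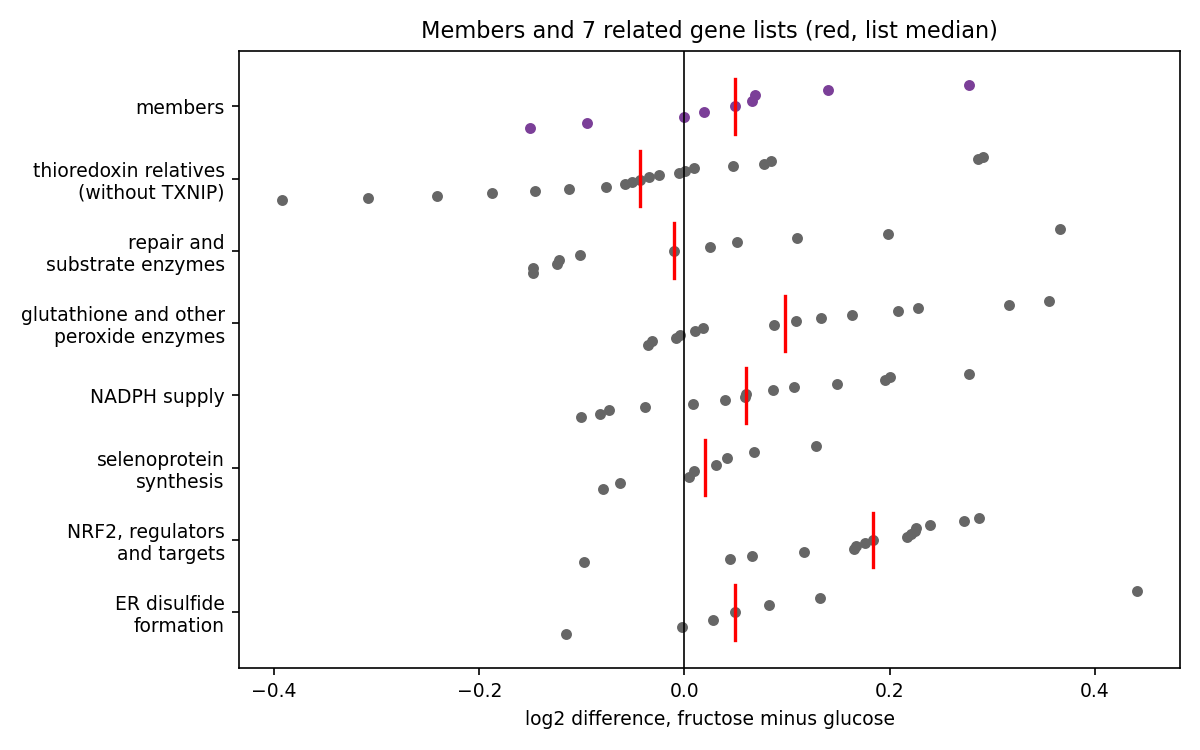
Log2 difference between fructose and glucose for the 9 measured members and for the genes of 7 related lists, each point a gene and each red line the median of the list (ER, endoplasmic reticulum). TXNIP, at -3.80, is left out of the points to keep the axis readable but is counted in its list's median of -0.043. The points of the NRF2 list lie above 0 for 14 of 15 genes, and the members spread to both sides, from -0.15 to 0.28.

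PRDX2 had the smallest p of the members, and the genes whose log2 values ran most like its own over the 6 arrays were FAM50A, KIF4A, SHISA3, PDLIM5 and CT83. Their Pearson r lay between 0.991 and 0.996, the highest among 11058 genes brighter than the median, so values of this height are a description of the ranking and carry no test. The differences of these genes ran from 0.11 for FAM50A to 0.56 for SHISA3, and none passed (lowest adjusted p 0.15). Current RefSeq names list 20 pseudogenes for 7 of the members, with 7 for TXN and 4 each for PRDX2 and PRDX3. Whether probes of those genes also bind transcripts of a pseudogene was not tested.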

How the data were processed

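The deposited table holds RMA intensity values, on a linear scale, made by the authors with RMA per the submitters' processing notes; its program, version and genome build were not given in the sources used here. All values were above 0 (2.15 to 9287) and log2 was taken. Of 32321 rows, 4091 numbered below the lowest annotated probe set were taken as controls and left out. The platform annotation paired 19158 of the 28230 tested probe sets with 1 symbol and 1388 with several, and 7684 stay unnamed here. A gene was its brightest probe set with 1 symbol. Fructose was compared with glucose by limma 3.58.1 in R 4.3.3 (lmFit, eBayes, two-sided, Benjamini-Hochberg over all tested probe sets, threshold 0.05), a procedure first tested on simulated data. Array data carry no read depth, and 3 arrays per sugar limit the precision. Brightness against the median probe set, which also depends on the probes, was used for subsets and marker checks, and members were not ranked by level. The members and lists were chosen with earlier results of these data known. Named genes were the members, TXNIP, SRXN1, NFE2L2, KEAP1, GSR, up to 4 genes of smallest p per list, and the 5 most like PRDX2; genes in a marker list, and others given as examples of a list, were named after their values were seen. Other settings tried were leaving out each array, a replicate block, repeated quantile normalization, median centring, brighter probe sets alone, intensity trend with robust variances, array weights, an unmoderated test, mean probe sets and all rows kept.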

Additional observations from a re-analysis of the deposited data

How the results depend on the processing

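No member passed in the limma fits under any of the 15 alternatives, and the lowest adjusted p was 0.085, for PRDX2 among the brighter probe sets. The count over all probe sets was 1, against 325 among brighter probe sets, 473 with an intensity trend and robust variances and 0 with the unmoderated test. Of 135 member differences recomputed, 8 changed sign, in PRDX1, PRDX6, TXN2 and TXNRD2. The replicate block, brighter probe sets, intensity trend, unmoderated test, mean probe sets and all rows kept left each difference as it was. A sign change could come only from the other settings, so the 135 overstate how often it could occur. PRDX1 ran from -0.030 to 0.017 and TXN2 from -0.0057 to 0.15 with an array left out, TXNRD2 from -8.2e-05 to 0.081. PRDX1 was 0.033 after repeated quantile normalization, and PRDX6 was -0.0063 after median centring. The cytosolic median was 0.050 and -0.0063 in these fits. With the replicate block the counts were again 0 members and 1 probe set. Same-numbered arrays did not deviate together (r of -0.026, -0.021 and -0.054), so the numbers were not taken as pairs.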
